A study of Homo sapiens with 9 samples.

Results

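Expression of 10 genes known as targets of Wnt signalling or as marks of intestinal stem cells was examined in HCT116 cells exposed to activin or to activin followed by HGF. They are LGR5, ASCL2, AXIN2, NKD1, RNF43, ZNRF3, LEF1, TCF7, MYC and SOX9. They were found in the table by symbol. The deposited table lists 33861 genes and held 9 of the 10, while ASCL2 was not analysed here. A filter on low counts kept 7 of the 9 among 20988 genes tested, and LGR5 and LEF1 were below it.

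HCT116 is a human colorectal carcinoma line of epithelial origin that carries mutant CTNNB1, the gene of β-catenin. The 9 RNA libraries formed 3 groups with 3 libraries each. Control cells, labelled NC, received neither factor, and how long they were cultured is not given in the sources used here. Activin-treated cells received 100 ng/mL activin A, a TGF-β family ligand, for 5 days. Activin + HGF-treated cells received the same activin treatment and then 20 ng/mL HGF, the ligand of the MET receptor, for a further 5 days. No activin-treated group is described as kept for the further 5 days without HGF, so that the effects of HGF and of the longer culture after activin cannot be told apart. No group received HGF without activin. With the culture time of control cells unknown, effects of treatment and of time in culture cannot be told apart against control either. The labels do not say that libraries of a group came from separate cultures, and p-values then measure only the spread between these libraries, which may be technical.

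In the canonical Wnt pathway, a secreted Wnt ligand binds a Frizzled receptor with LRP5 or LRP6 and thereby stops a destruction complex of AXIN, APC and the kinases GSK3 and CK1 from marking β-catenin for degradation. β-catenin then enters the nucleus and activates genes together with TCF and LEF factors, which bind DNA. In the intestinal crypt this pathway maintains the stem cells, and LGR5 and ASCL2 mark those cells. Many of its target genes, among them AXIN2, NKD1, RNF43 and ZNRF3, encode proteins that restrain the pathway in turn. Mutations of the kind in HCT116 make β-catenin resistant to the destruction complex.

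TCF7 is itself a TCF factor, and its gene has more than 1 annotated start. RefSeq promoter windows of GRCh38.p14, from 250 bases before to 50 bases after a start, were at hand for 3 of the genes, with 2 windows for TCF7, 2 for RNF43 and 1 for LEF1. They were searched on both strands for the DNA word that TCF and LEF proteins recognise, taken here as CTTTG followed by 2 letters that are each A or T. A match was found in 1 of the 5 windows, that of a downstream start of TCF7. It is shown because TCF7 is the DNA-binding partner of β-catenin among the genes tested. Capitals mark the word as it reads on the opposite strand, where CTTTG is followed by TT, and the first capital lies 50 bases before that start, on the plus strand at chr5:134123557-134123586.
TCF7: ggccccactggAACAAAGgaggagagaggc
Among all 35116 windows of the RefSeq set, 13.8% held at least 1 such word, so that a match by itself is common. The match is a description of letters and no measured binding site. The RNF43 and LEF1 windows held none.

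The libraries held 57453977 to 77016167 counts each. Values per library are given as CPM, counts scaled to a common library size with TMM factors, and levels of different genes are compared only as FPKM, which is also per gene length. A gene passed a comparison at a Benjamini-Hochberg adjusted p under 0.05 in edgeR's quasi-likelihood test, with the p adjusted over all genes tested. Of all genes tested, 18% passed between activin-treated and control cells, 12.9% between activin + HGF-treated and activin-treated cells, and 31.4% between activin + HGF-treated and control cells. Activin replicate 2 and activin + HGF replicate 1 stood apart from their groups. In these 2 libraries, 5.54% and 6.80% of 9965 well-expressed genes lay at least 1 log2 unit from both other libraries of the group while those lay within 1 log2 unit of each other, against 0.723% to 1.16% in the other 7 libraries. As a check of the cell type, the epithelial markers EPCAM, KRT8, KRT18, KRT19, CDH1, VIL1 and CDX2 had summed values of 2661 to 2930 CPM in control, 1877 to 3121 CPM in activin-treated and 3592 to 3963 CPM in activin + HGF-treated cells. VIL1 and CDX2 added little to these sums, with means in the same order of 0.077, 0.071 and 0.164 CPM for VIL1. For CDX2 the means were 15.3, 14.8 and 18.9 CPM. The fibroblast genes COL1A2 and DCN, the leukocyte genes PTPRC and CD3E and the endothelial gene CDH5 were below the filter.

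Between activin-treated and control cells 1 of the 7 genes tested passed, AXIN2, and it was lower. Of all genes tested 9.58% passed as higher and 8.41% as lower in this comparison. Between activin + HGF-treated and activin-treated cells 1 of 7 passed as well, SOX9, which was higher, beside 7.41% of all genes higher and 5.45% lower. Between activin + HGF-treated and control cells 2 of 7 passed, AXIN2 lower and SOX9 higher, beside 16.4% of all genes higher and 15% lower. With a minimum change of 2-fold, 1 of 7, 0 of 7 and 1 of 7 passed in the 3 comparisons, beside 11.4%, 8.09% and 21.5% of all genes. The groups did not overlap for 3, 2 and 2 of the 7 genes, beside 42.2%, 32.7% and 53.8% of all genes. With 7 genes, these counts are near the shares among all genes tested. Their median log2 fold changes were 0.15, 0.18 and 0.34 in the 3 comparisons, beside medians of 0.02, -0.04 and -0.03 over all genes tested. The 3 comparisons share libraries and are not independent of each other. Directions after HGF are relative to the TMM scaling, under which 57.6% of the genes that passed between the treated groups and 52.3% of those between activin + HGF-treated and control cells were higher. With library totals in place of TMM these were 22.3% and 36.3%. For activin-treated against control cells they were 53.2% and 63.5%.

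**Figure D1:**
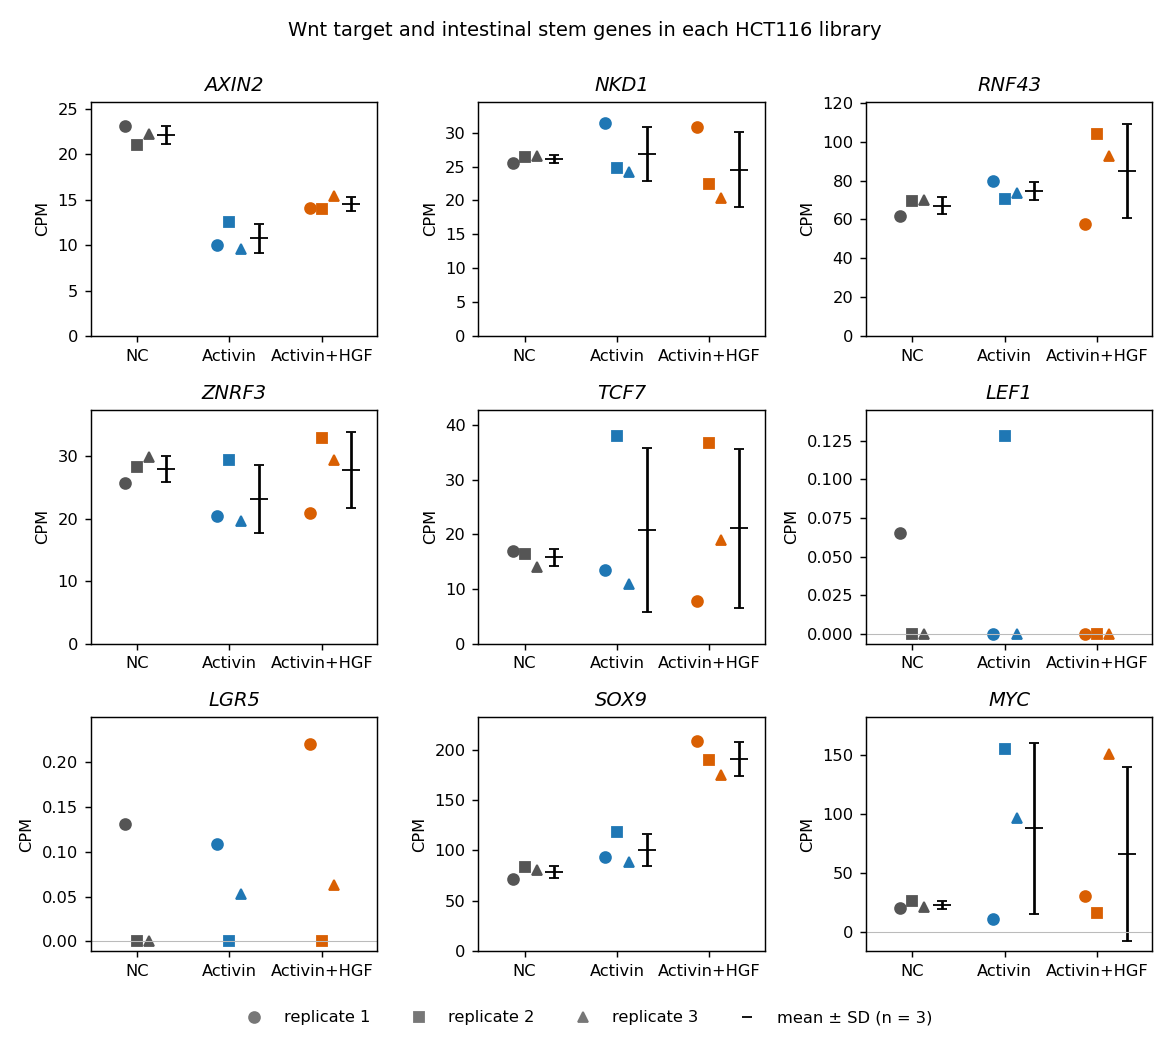
Level of each of the 9 genes in every library, in CPM on a linear axis that includes 0, with 1 point per library and bars for the group mean and SD (none for LGR5 and LEF1, whose libraries are at or near 0). AXIN2 was 21.0 to 23.1 CPM in control and 9.62 to 12.5 CPM in activin-treated cells, SOX9 reached 175 to 208 CPM in activin + HGF-treated cells, and MYC spanned 11.1 to 156 CPM within the activin group.

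AXIN2 fell in activin-treated cells. The gene (ENSG00000168646, minus strand, chr17:65528563-65561648, GRCh38) encodes a scaffold of the destruction complex that is transcribed in response to Wnt signalling and dampens it. The control libraries had 23.1, 21.0 and 22.2 CPM, the activin libraries 10.0, 12.5 and 9.62 CPM, and the activin + HGF libraries 14.1, 14.0 and 15.4 CPM. Thus every treated library lay below every control library, and the activin + HGF libraries lay between the other groups without overlap. AXIN2 was 2.06-fold lower in activin-treated than in control cells, a log2 fold change of -1.04 (SE 0.18, edgeR adjusted p = 0.00341). This call was kept when any of the 9 libraries was left out, with log2 fold changes of -1.17 to -0.93. In bulk RNA, fewer cells expressing a gene and less RNA per cell cannot be told apart.

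After HGF, AXIN2 stayed 1.53-fold below control, with a log2 fold change of -0.61 (SE 0.18, edgeR adjusted p = 0.0259). The adjusted p was 0.0709 without control replicate 1, 0.0882 without control replicate 3 and 0.0833 without activin + HGF replicate 2. Activin + HGF-treated cells did not pass against activin-treated cells in AXIN2, where the log2 fold change was 0.43 (SE 0.18, edgeR adjusted p = 0.134). Without activin replicate 2, which is the highest activin library in AXIN2, that difference was 0.56 with an edgeR adjusted p of 0.0315. It shrank to 0.10 when libraries were scaled by their totals alone. In FPKM the activin libraries had 1.92, 2.05 and 1.82 and the activin + HGF libraries 1.76, 2.08 and 2.23, so that on this scale those groups overlapped.

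NKD1, RNF43 and ZNRF3, the other feedback inhibitors, passed in none of the 3 comparisons. NKD1 (ENSG00000140807, plus strand, chr16:50548396-50649249) encodes a protein that binds Dishevelled, and had 25.5, 26.4 and 26.6 CPM in control, 31.4, 24.8 and 24.2 CPM in activin-treated and 30.8, 22.4 and 20.4 CPM in activin + HGF-treated cells. The treated libraries lay on both sides of the control libraries, with log2 fold changes against control of 0.03 under activin (SE 0.20, edgeR adjusted p = 0.934) and -0.09 with HGF added (SE 0.20, edgeR adjusted p = 0.761).

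RNF43 and ZNRF3 are related membrane ubiquitin ligases that remove Frizzled receptors from the cell surface. RNF43 (ENSG00000108375, minus strand, chr17:58353676-58417595) had 61.9, 69.6 and 69.8 CPM in control, 79.6, 70.7 and 73.7 CPM in activin-treated and 57.7, 104 and 92.7 CPM in activin + HGF-treated cells. The activin libraries lay just above the control libraries without overlap, while activin + HGF replicate 1 was below all 6 others and the remaining activin + HGF libraries were above them. ZNRF3 (ENSG00000183579, plus strand, chr22:28883572-29057488) had 25.7, 28.3 and 29.9 CPM in control, 20.4, 29.4 and 19.7 CPM in activin-treated and 21.0, 32.9 and 29.4 CPM in activin + HGF-treated cells. Activin replicate 2 and activin + HGF replicate 1 are the libraries out of step here, the former high and the latter low. The log2 fold changes between activin-treated and control cells were 0.15 for RNF43 (SE 0.21, edgeR adjusted p = 0.683) and -0.27 for ZNRF3 (SE 0.22, edgeR adjusted p = 0.462). With both of these libraries left out, an alternative added after the data were seen, ZNRF3 passed between activin-treated and control cells (log2 fold change -0.48, edgeR adjusted p = 0.0197) and between activin + HGF-treated and activin-treated cells (0.64, edgeR adjusted p = 0.0101). On the same libraries RNF43 passed between activin + HGF-treated and control cells, with a log2 fold change of 0.56 and an edgeR adjusted p of 0.00406. For ZNRF3 the libraries left out are the highest activin and the lowest activin + HGF library. For RNF43 the lowest activin + HGF library is left out. These differences therefore grow by construction, and no conclusion is drawn from the calls.

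Among these feedback genes only AXIN2 passed with all 9 libraries, and the differences between the genes were not themselves tested. In activin-treated against control cells, the log2 fold changes were -1.04 for AXIN2, 0.03 for NKD1, 0.15 for RNF43 and -0.27 for ZNRF3.

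**Figure D2:**
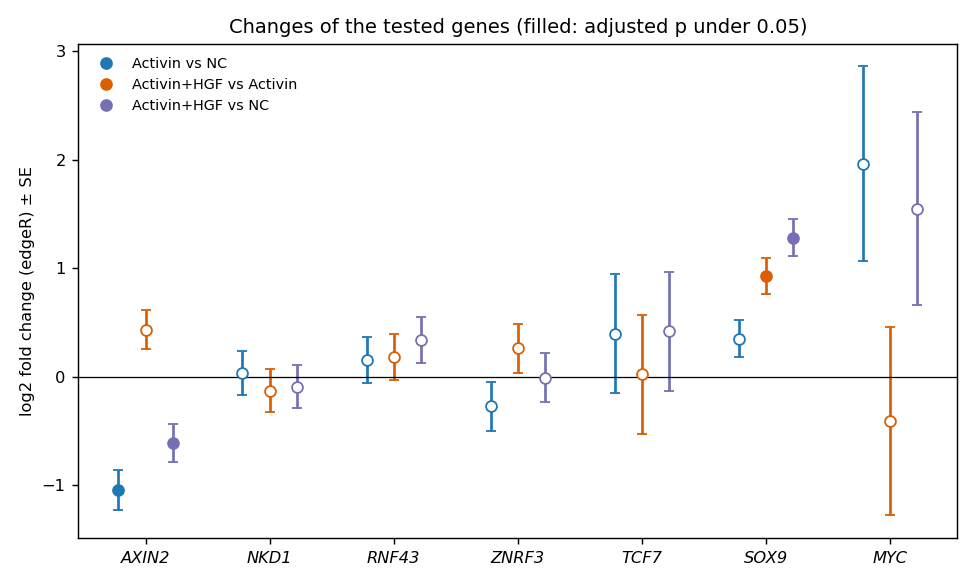
Log2 fold change from edgeR, with an SE derived from the F statistic of its test, for the 7 genes tested in the 3 comparisons. Filled points mark an adjusted p under 0.05. AXIN2 lies at -1.04 in activin-treated against control cells and SOX9 at 0.93 and 1.28 after HGF, while MYC has estimates of up to 1.96 with SEs of 0.87 to 0.90.

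SOX9, a transcription factor of crypt progenitor and Paneth cells that is a Wnt target in the gut, rose after HGF. The gene (ENSG00000125398, plus strand, chr17:72121020-72126416) had 72.2, 83.5 and 80.2 CPM in control, 94.0, 119 and 88.3 CPM in activin-treated and 208, 190 and 175 CPM in activin + HGF-treated cells. The 3 groups did not overlap, and the activin + HGF libraries were the highest. SOX9 was 1.9-fold higher in activin + HGF-treated than in activin-treated cells, a log2 fold change of 0.93 (SE 0.17, edgeR adjusted p = 0.00936). Without activin replicate 1 this was no longer a call, with an edgeR adjusted p of 0.053, nor was it when only the groups compared were fitted, with an edgeR adjusted p of 0.0535. Against control, activin + HGF-treated cells were 2.43-fold higher, a log2 fold change of 1.28 (SE 0.17, edgeR adjusted p = 0.000454), and this call was kept without any 1 of the 9 libraries. Activin-treated against control cells did not pass, at a log2 fold change of 0.35 (SE 0.17, edgeR adjusted p = 0.18). Of the 7 epithelial markers only EPCAM passed between activin + HGF-treated and activin-treated cells, with a log2 fold change of 1.02. The others were at 0.93 for KRT8, 0.74 for KRT19, 0.35 for CDX2, 0.01 for KRT18 and -0.19 for CDH1. VIL1, near 0 CPM, was at 1.18. The part of these markers in the SOX9 result was not tested.

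MYC, a transcription factor of growth and proliferation and a classical β-catenin target, spread widely within the treated groups. The control libraries of MYC (ENSG00000136997) had 20.1, 26.2 and 21.3 CPM. The activin libraries had 11.1, 156 and 96.5 CPM, and the activin + HGF libraries 30.7, 16.1 and 151 CPM. Each treated group thus held 1 library below all control libraries and at least 1 several times above them, and the groups overlapped. These were not low counts, since the MYC counts ran from 821 to 9717 per library. MYC did not pass in any comparison, with a log2 fold change of 1.96 between activin-treated and control cells (SE 0.90, edgeR adjusted p = 0.167), of 1.55 between activin + HGF-treated and control cells (SE 0.89, edgeR adjusted p = 0.212) and of -0.41 between the treated groups (SE 0.87, edgeR adjusted p = 0.793). At this spread, changes of these sizes in MYC were not detectable.

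TCF7 (ENSG00000081059, plus strand, chr5:134114681-134151865) showed a like spread. It had 17.0, 16.4 and 14.0 CPM in control, 13.4, 38.1 and 10.95 CPM in activin-treated and 7.79, 36.6 and 18.9 CPM in activin + HGF-treated cells. In each treated group the replicate 2 library was the highest and 1 or more libraries were below control. The log2 fold changes of TCF7 were 0.40 (SE 0.55, edgeR adjusted p = 0.686) under activin against control, 0.02 (SE 0.55, edgeR adjusted p = 0.984) for activin + HGF against activin and 0.42 (SE 0.55, edgeR adjusted p = 0.603) for activin + HGF against control. Without activin replicate 2 and activin + HGF replicate 1, TCF7 passed between activin + HGF-treated and activin-treated cells (log2 fold change 1.19, edgeR adjusted p = 0.0245), and its value under activin against control became -0.37. This setting was added after the data were seen. These are the highest activin and the lowest activin + HGF library for TCF7. Leaving them out therefore raises this difference by construction, and no conclusion is drawn from the call.

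Few genes spread as widely as MYC and TCF7 in the treated groups. The highest MYC library was 13.4 times the lowest in the activin group, after 0.5 was added to each CPM value, and 9.16 times in the activin + HGF group. Only 0.241% and 0.351% of 9965 genes with a mean of at least 10 CPM spread this far or further in those groups. In control cells the MYC ratio was 1.3, a spread that 23.5% of the genes reached. For TCF7 the ratios were 3.37 in activin-treated and 4.48 in activin + HGF-treated cells, reached by 1.60% and 1.26% of genes, beside 1.20 in control cells. AXIN2, in contrast, had ratios of 1.10, 1.29 and 1.10 in control, activin-treated and activin + HGF-treated cells, and SOX9 had 1.16, 1.34 and 1.19. MYC was also high in activin replicate 3 and activin + HGF replicate 3, where TCF7 was 10.95 and 18.9 CPM, while activin replicate 2 was the highest of the 9 libraries for both genes.

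**Figure D3:**
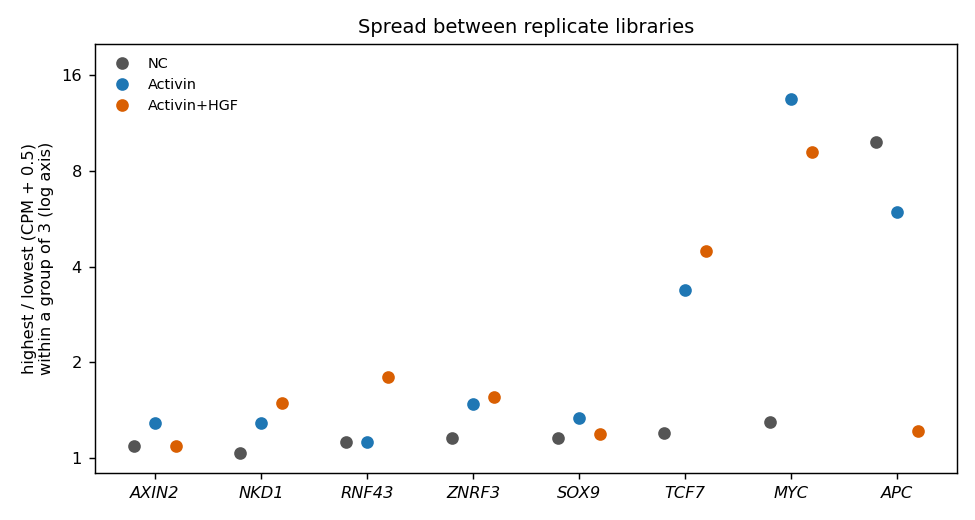
Highest over lowest CPM + 0.5 within each group of 3 libraries, on a log axis, for the 7 genes tested and APC. MYC reaches 13.4 in activin-treated and 9.16 in activin + HGF-treated cells, and APC 9.88 in control cells, while AXIN2 stays at 1.10 to 1.29.

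LGR5, the receptor of R-spondins that marks crypt base stem cells, was at or near 0 in every library. The gene (ENSG00000139292, plus strand, chr12:71439798-71586310) had 8, 0 and 0 counts in control, 8, 0 and 4 counts in activin-treated and 12, 0 and 4 counts in activin + HGF-treated libraries. LEF1 (ENSG00000138795, minus strand, chr4:108047545-108168956), a DNA-binding partner of β-catenin like TCF7, had 4, 0 and 0 counts in control, 0, 8 and 0 counts in activin-treated and 0 counts in all 3 activin + HGF-treated libraries. All of these are multiples of 4, as were 35.0% of all counts from 1 to 40 in the table. A count of 0 allows up to 3 counts, which is at most 0.0551 CPM in these libraries, and covers counting error only. This limit takes each count as a separate read and would be too low if counts came in steps of 4. With no filter on low counts, edgeR adjusted p-values over 33861 genes were 0.816 to 0.994 for LGR5 and 0.376 to 0.906 for LEF1. A difference between groups in either gene was not detectable at this depth.

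By level per gene length, SOX9 was the highest of the 9 genes in each group, with mean FPKM of 17.9 ± 0.924 in control, 24.0 ± 1.78 in activin-treated and 35.4 ± 2.02 in activin + HGF-treated cells (SD, n = 3). In control cells RNF43 came next at 9.51 ± 0.462 FPKM, followed by MYC at 4.39 ± 0.539, AXIN2 at 3.80 ± 0.265 and ZNRF3 at 3.59 ± 0.227 FPKM, whose libraries overlapped from each to the next. TCF7 at 1.40 ± 0.151 and NKD1 at 1.35 ± 0.020 FPKM also overlapped, and both lay above LGR5 and LEF1, which did not exceed 0.03 FPKM in any library. In activin-treated cells MYC at 17.4 ± 13.6 FPKM overlapped both SOX9 above it and RNF43 below it, at 11.3 ± 1.58 FPKM. AXIN2 there stood at 1.93 ± 0.115 FPKM, below ZNRF3 at 3.11 ± 0.425 FPKM without overlap, and among TCF7 at 1.87 ± 1.17 and NKD1 at 1.47 ± 0.311 FPKM. In activin + HGF-treated cells SOX9 again stood clear of the rest, and MYC at 10.7 ± 12.4 FPKM overlapped RNF43 at 9.97 ± 3.57 FPKM.

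The genes whose log2(CPM + 0.5) followed AXIN2 most closely over the 9 libraries, among 14757 genes with a mean of at least 1 CPM, were PEBP1, RPUSD4 and PSMD13, with Pearson correlations of 0.992, 0.991 and 0.991. The closest to MYC were IL17RA at 0.910, GPR143 at 0.874 and ACBD7 at 0.869. For TCF7 they were STK16 at 0.973, TMEM249 at 0.955 and PALD1 at 0.949. The correlations describe 9 points in 3 groups that share libraries and scaling, and the search for MYC and TCF7 was added after their values were seen.

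The rest of the pathway was read from 8 lists of Wnt ligands, receptors, R-spondins and LGR receptors, antagonists, signal transducers, nuclear factors, other target genes and other intestinal stem genes. They name 106 genes, of which 84 were tested. Under activin 22 of the 84 passed, 17 higher and 5 lower, which is 26.2% beside 18% of all genes tested. Between activin + HGF-treated and activin-treated cells 15 passed, 12 higher and 3 lower, or 17.9% beside 12.9%. Between activin + HGF-treated and control cells 34 passed, 28 higher and 6 lower, or 40.5% beside 31.4%. The second count depended on single libraries. It was 1 without activin replicate 1, 27 without activin replicate 2, 4 without activin replicate 3 or activin + HGF replicate 2, 7 without any of the control libraries or activin + HGF replicate 3, and 41 without both libraries that stood apart. For activin against control the count was 11 without control replicate 3. The shares of all genes passing in these settings are not given here. The shifts are therefore not read as particular to the pathway genes. Of the pathway genes named below as passing under activin, WNT4, WNT6, WNT7A, WNT7B, WNT9A, LGR6, KREMEN2, TLE1, EPHB3, LRIG1 and TERT kept their call without any 1 of the 9 libraries. BCL9L, DVL1 and NKD2 lost it without control replicate 3. Of the 9 such settings, PPARD lost it in 2, FZD4 in 3, CDCA7 in 4, CSNK1A1 in 6 and RGMB in 7. After HGF, WNT3 kept its call against activin in all 9 settings, and WNT7B, TLE1 and DKK1 lost it without activin replicate 1, at edgeR adjusted p-values of 0.054, 0.0527 and 0.062. TLE1 and DKK1 also lost it when only the groups compared were fitted, while WNT3 and WNT7B kept it there. Between activin + HGF-treated and control cells, FZD5 lost its call without control replicate 2 and FZD6 in 3 settings. No pathway gene named as passing changed direction in any alternative it was put through.

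Of the 14 Wnt ligands tested, 5 rose under activin and none fell, beside 9.58% of all genes tested that were higher and 8.41% that were lower, and their median log2 fold change was 0.95 beside 0.02 over all genes. WNT7B rose from 7.86, 9.32 and 7.65 CPM in control to 39.1, 54.9 and 29.9 CPM in activin-treated and 84.7, 103 and 99.9 CPM in activin + HGF-treated libraries. The groups did not overlap, with a log2 fold change of 2.32 under activin (SE 0.24, edgeR adjusted p = 0.000197) and a further 1.22 with HGF (SE 0.23, edgeR adjusted p = 0.0107). The other ligands that rose under activin were WNT7A by 3.28, WNT9A by 2.54, WNT6 by 2.02 and WNT4 by 1.21 on the log2 scale, although WNT7A remained at 2.04 to 3.65 CPM. After HGF, WNT11 and WNT4 rose along with WNT7B, by 1.28 and 0.97, while WNT3 fell by 1.34 from activin-treated to activin + HGF-treated cells. Each of WNT4 and WNT11 lost that call in 6 or more of the 9 settings that left out 1 library. WNT16, the ligand with 88.6 ± 3.69 CPM in control cells (SD, n = 3), was 2.03-fold lower in activin + HGF-treated than in control cells, with a log2 fold change of -1.02 (SE 0.25, edgeR adjusted p = 0.0112).

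Of the 15 receptors tested 1 rose and none fell under activin, beside 9.58% higher and 8.41% lower among all genes tested. It was FZD4, a Frizzled receptor, which rose by a log2 fold change of 0.96. FZD5 rose and FZD6 fell between activin + HGF-treated and control cells, with log2 fold changes of 0.94 and -1.01. Among R-spondins and LGR receptors, LGR4 and LGR6 moved in opposite directions. LGR4, the LGR family member expressed in most epithelia, had 16.01, 11.9 and 13.9 CPM in control, 9.86, 7.99 and 8.53 CPM in activin-treated and 14.3, 18.8 and 18.8 CPM in activin + HGF-treated libraries. It fell by 0.66 on the log2 scale under activin (edgeR adjusted p = 0.048) and rose by 0.98 after HGF (edgeR adjusted p = 0.0161), calls that were lost in 8 and 3 of the 9 settings that left out 1 library. LGR6 was low throughout, at 0.163 ± 0.086 CPM in control, 2.14 ± 0.416 CPM in activin-treated and 0.654 ± 0.215 CPM in activin + HGF-treated cells (SD, n = 3), and passed upward by 3.71 and then downward with a log2 fold change of -1.71, the latter call being lost in 7 of the 9 settings with 1 library left out.

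Of the 8 antagonists tested, 2 rose under activin, 2 rose from activin-treated to activin + HGF-treated cells and 5 rose between activin + HGF-treated and control cells, and none fell. The shares of all genes tested that were higher were 9.58%, 7.41% and 16.4% in these comparisons. KREMEN2, a receptor for DKK proteins, rose under activin by 1.28 on the log2 scale (SE 0.26, edgeR adjusted p = 0.00707). NKD2, the paralogue of NKD1, rose by 1.05 (SE 0.24, edgeR adjusted p = 0.0136), although NKD1 itself did not pass. DKK1, a secreted inhibitor of LRP receptors and also a Wnt target, had 166 ± 20.3 CPM in control, 129 ± 10.5 CPM in activin-treated and 254 ± 49.9 CPM in activin + HGF-treated cells (SD, n = 3), and rose after HGF by a log2 fold change of 0.98 (SE 0.18, edgeR adjusted p = 0.0107). NOTUM, an enzyme that inactivates Wnt ligands, had 15.5 ± 0.934, 16.3 ± 5.07 and 28.5 ± 1.38 CPM in the same order and passed after HGF against activin-treated cells, a call lost in 8 of 9 settings with 1 library left out. It also passed between activin + HGF-treated and control cells, with a log2 fold change of 0.88 (SE 0.22, edgeR adjusted p = 0.0134). This last call was not put through the alternatives.

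CTNNB1, the gene of β-catenin, fell under activin. It had 308, 296 and 308 CPM in control, 215, 179 and 200 CPM in activin-treated and 251, 217 and 222 CPM in activin + HGF-treated libraries. All 6 treated libraries were below the control libraries. The log2 fold change was -0.62 under activin (SE 0.14, edgeR adjusted p = 0.015) and -0.40 between activin + HGF-treated and control cells (edgeR adjusted p = 0.0568). The call under activin was lost in 4 of the 9 settings with 1 library left out. These are RNA levels, and β-catenin protein was not analysed here. Of the 15 transducers 2 rose and 1, CTNNB1, fell under activin, beside 9.58% higher and 8.41% lower among all genes tested. DVL1, which relays the signal from Frizzled, rose by 0.82. CSNK1A1, the CK1α kinase of the destruction complex, rose by 0.57, a call lost in 6 of those 9 settings. AXIN1, the constitutive scaffold of that complex, had 27.6 ± 0.520 CPM in control, 35.8 ± 9.87 CPM in activin-treated and 60.1 ± 5.44 CPM in activin + HGF-treated cells (SD, n = 3). It rose between activin + HGF-treated and control cells, where AXIN2 fell, with a log2 fold change of 1.12 (SE 0.20, edgeR adjusted p = 0.00255) in AXIN1 that passed without any 1 of the 9 libraries. Against activin-treated cells it rose by 0.75, a call lost in 8 of those 9 settings, and DVL1 rose by 0.66 and also lost its call in 8. Between activin + HGF-treated and control cells DVL1 rose by 1.47 (SE 0.19, edgeR adjusted p = 0.000433). That call was kept without any 1 of the 9 libraries. BTRC, the ubiquitin ligase subunit that recognises phosphorylated β-catenin, fell after HGF, with log2 fold changes of -0.87 against activin-treated and -0.85 against control cells, calls lost in 4 and 1 of the 9 settings. APC spread even in control cells, at 32.1, 2.80 and 25.4 CPM, with 14.1, 3.17 and 21.2 CPM in activin-treated and 12.0, 12.9 and 10.5 CPM in activin + HGF-treated libraries. It was lowest in replicate 2 of the control and activin groups and passed in none of the comparisons.

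Of the 10 nuclear factors tested 2 rose and 1 fell under activin, beside 9.58% higher and 8.41% lower among all genes tested. Between activin + HGF-treated and control cells 5 of them rose and none fell, beside 16.4% higher and 15% lower among all genes. TLE1, a Groucho corepressor that binds TCF factors, rose in both steps, from 16.7, 18.1 and 17.9 CPM in control to 37.3, 49.98 and 32.8 CPM in activin-treated and 89.4, 79.3 and 76.3 CPM in activin + HGF-treated libraries. Its groups did not overlap, with log2 fold changes of 1.19 (SE 0.19, edgeR adjusted p = 0.00212) and 1.03 (SE 0.19, edgeR adjusted p = 0.00975). BCL9L, a coactivator that binds β-catenin, rose under activin by 1.03. TCF7L2, the main TCF factor of the intestinal epithelium, fell under activin with a log2 fold change of -0.95 (SE 0.29, edgeR adjusted p = 0.0456), from 139 ± 24.8 to 71.9 ± 14.0 CPM (SD, n = 3). That call was lost in 7 of the 9 settings with 1 library left out. TCF7L1, another TCF factor, did not pass, with log2 fold changes of 0.25, -0.22 and 0.03.

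Of 12 other target genes tested, 2 rose and 1 fell under activin, beside 9.58% higher and 8.41% lower among all genes tested. EPHB3, a receptor that positions cells along the crypt, rose by 1.36 on the log2 scale (SE 0.29, edgeR adjusted p = 0.00964), and PPARD, a nuclear receptor, by 0.70. CDCA7 fell by 0.91 on that scale (SE 0.23, edgeR adjusted p = 0.0208), a call lost in 4 of the 9 settings with 1 library left out. CCND1, the G1 cyclin D1, had 355 ± 8.76, 385 ± 41.1 and 564 ± 17.3 CPM in control, activin-treated and activin + HGF-treated cells (SD, n = 3). It passed after HGF against activin-treated cells with a log2 fold change of 0.55, a call lost in 8 of 9 settings with 1 library left out. Against control, activin + HGF-treated cells passed at a log2 fold change of 0.67 (SE 0.14, edgeR adjusted p = 0.00569), a call not put through the alternatives. In that comparison 3 of the 12 genes rose and 1 fell, beside 16.4% higher and 15% lower among all genes tested. The gene that fell was SLC12A2, with a log2 fold change of -1.16 (SE 0.36, edgeR adjusted p = 0.0318). Its call was lost in 5 of the 9 settings with 1 library left out.

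Among 6 other intestinal stem genes tested, LRIG1 and RGMB rose under activin by 0.87 and 0.50 on the log2 scale, and TERT fell. The RGMB call was lost in 7 of the 9 settings with 1 library left out. The shares among all genes tested were 9.58% higher and 8.41% lower. TERT, the catalytic subunit of telomerase, had 5.96, 5.93 and 5.58 CPM in control, 1.49, 1.95 and 1.304 CPM in activin-treated and 0.992, 1.80 and 1.34 CPM in activin + HGF-treated libraries. All treated libraries were below all control libraries, and TERT was 3.68-fold lower under activin, with a log2 fold change of -1.88 (SE 0.31, edgeR adjusted p = 0.00263). HGF after activin left it at -0.20 relative to activin alone (edgeR adjusted p = 0.712). OLFM4, SMOC2 and HOPX, further stem cell genes, were below the filter like LGR5.

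**Figure D4:**
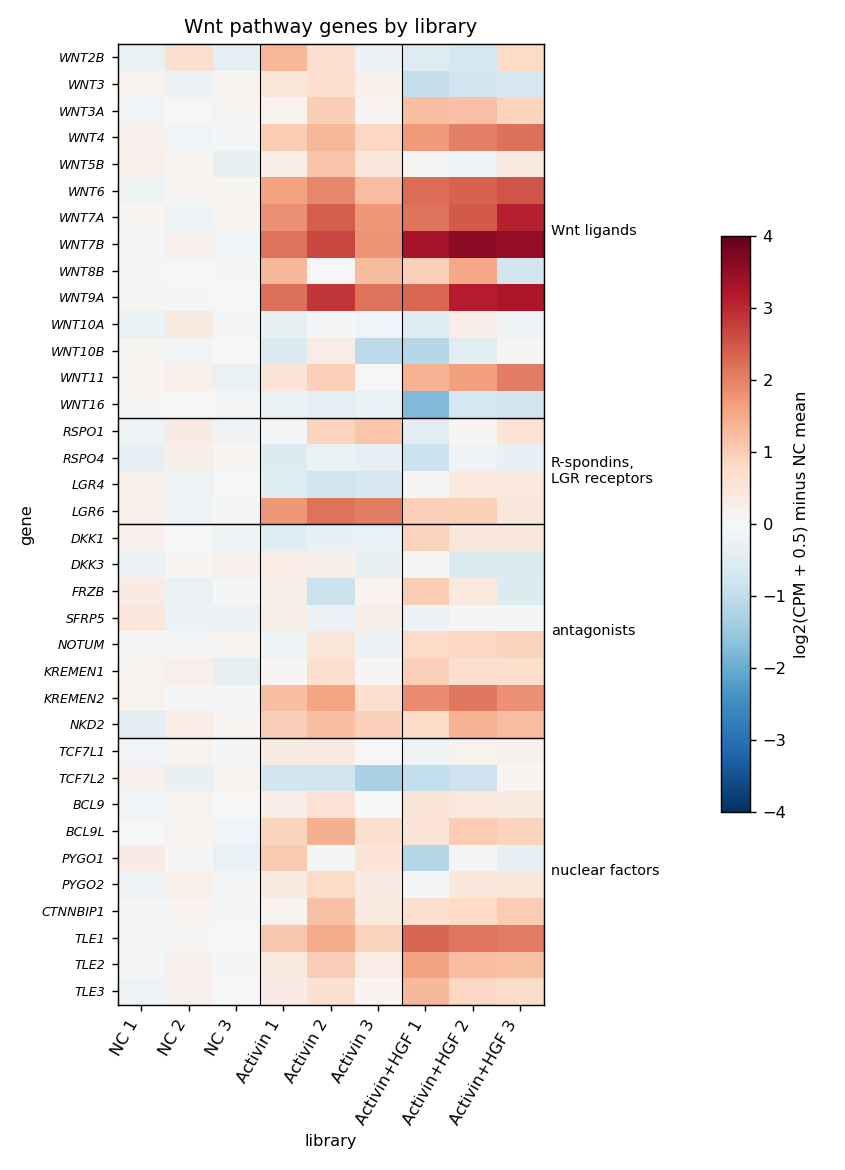
Log2(CPM + 0.5) of each tested Wnt ligand, R-spondin or LGR receptor, antagonist and nuclear factor in each of the 9 libraries, less the mean of that gene in control cells, as a colour scale. WNT7B and TLE1 rise in both steps, LGR4 and LGR6 are displaced in opposite directions in the activin libraries, and WNT3 is low in the activin + HGF libraries.

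Markers of other cell types moved with treatment as well. The summed leukocyte markers were 1.43 to 3.20 CPM in control, 8.995 to 21.6 CPM in activin-treated and 16.7 to 22.9 CPM in activin + HGF-treated libraries, nearly all of it CD68, a lysosomal protein that many cells express. The summed fibroblast markers were 25.0 to 27.0, 44.8 to 52.9 and 33.4 to 40.6 CPM, mostly COL1A1. COL3A1, the other fibroblast marker tested, went the opposite way, with 59, 144 and 212 counts in control, 3, 0 and 0 counts in activin-treated and 14, 21 and 27 counts in activin + HGF-treated libraries, and passed as lower in both treated groups than in control (edgeR adjusted p = 0.00111 and 0.0234). The call between activin + HGF-treated and control cells was lost in 4 of the 9 settings with 1 library left out. The endothelial markers stayed at or under 1.71 CPM. Their part in the results above was not tested.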

How the data were processed

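RNA of 9 HCT116 libraries was depleted of ribosomal RNA and sequenced. For each gene and library the deposited table gives raw counts of reads and FPKM, which the authors had scaled for gene length and library size. The submitters' processing notes name cutadapt 1.9, HISAT2 2.0.4 and StringTie 1.3.4d. The build was not named in the sources used here, and 99.9% of 32930 gene IDs shared with GENCODE release 29 overlapped its GRCh38 genes. Whether counting used strand is not stated. Groups follow the treatment tags. Table columns were matched to libraries by the sample descriptions, and the column names of the activin + HGF libraries give the cell line and a number but no treatment, so that their group rests on those labels alone.

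Counts were tested with edgeR 4.0.16 in R 4.3.3 (filterByExpr, TMM, glmQLFit, glmQLFTest) on all 9 libraries with a mean per group, and p-values were adjusted by Benjamini-Hochberg over 20988 genes. Each SE given with an edgeR result is the absolute log2 fold change divided by the square root of the F statistic of that test. With 3 libraries against 3, the smallest exact permutation p is 0.1. The ratio of counts to FPKM was taken relative to the median ratio of each library over 10685 genes. For the 7 genes tested it differed between libraries by a factor of at most 1.01. This step removes differences in scaling between libraries, and does not compare CPM with FPKM between groups. Intervals at a count of 0 use 3 counts.

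The members, gene lists and tests were chosen with earlier results of these data known. Named list genes were up to 2 higher and 2 lower genes per list and comparison that passed with the largest change and at least 1 CPM in the higher group, plus CTNNB1, APC, TCF7L1, TCF7L2 and LGR4. The closest genes by correlation were planned for LGR5 and AXIN2, and LGR5 was too low for it. WNT4, WNT6 and WNT7B in the activin comparison and WNT4 in the HGF comparison were named after their values were seen. NOTUM and CCND1 in activin + HGF-treated against control cells also lie outside the rule. Alternatives were other scalings, no filter, a replicate block, only the groups compared, DESeq2 1.42.0, limma 3.58.1 on log2(FPKM + 0.1 or 1), stricter thresholds and each library left out. Scripts were tested on simulated data. Python 3.11.15 drew the figures.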

Additional observations from a re-analysis of the deposited data

How the results depend on the processing

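The number of the 7 genes that passed was 1, 1 and 2 for activin against control, activin + HGF against activin and activin + HGF against control. For the first it was 2 with limma on log2(FPKM + 0.1) and on log2(FPKM + 1), where SOX9 passed too, and 2 without activin replicate 2 and activin + HGF replicate 1. For the second it was 0 with only the groups compared, 0 at a 2-fold minimum and 5 without those 2 libraries, and for the third 1 at a 2-fold minimum, 1 at an adjusted p under 0.01 and 4 without those 2 libraries. Leaving out 1 library gave 1 to 1, 0 to 2 and 1 to 3. Of the 84 pathway genes 22, 15 and 34 passed. At a 2-fold minimum these were 12, 5 and 21, beside 11.4%, 8.09% and 21.5% of all genes tested. At an adjusted p under 0.01 they were 11, 2 and 19. For activin + HGF against activin the count was 9 with library totals, 8 with no filter, 2 with only the groups compared, 9 with limma on log2(FPKM + 0.1) and 41 without those 2 libraries, beside 29 for activin against control. Leaving out 1 library gave 11 to 23, 1 to 27 and 23 to 41. The number of all genes passing moved as well. Between the treated groups it was 2698 of 20988 in the main setting and 3108 of 20988 with library totals. With limma on log2(FPKM + 0.1) it was 3158 of 15009. Shares for most other settings, the replicate block among them, are not given here. Shifts in the counts are therefore not read as particular to these genes. A 2-fold minimum and a lower threshold pass fewer genes by construction, and the cause of the other shifts was not tested. The setting without those 2 libraries was added after the data were seen, and no conclusion is drawn from its counts.

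Scaling by library totals in place of TMM moved the median of all genes by -0.34 between the treated groups and by -0.27 between activin + HGF and control. The share of passing genes that were higher was 57.6% between the treated groups with TMM, 22.3% with library totals and 25.3% with limma on FPKM, and 52.3%, 36.3% and 34.7% for activin + HGF against control. For activin against control it was 53.2%, 63.5% and 58.4%. Directions after HGF are therefore relative to TMM. SOX9 kept its direction, at 0.59 with library totals and 0.56 with limma on log2(FPKM + 0.1) between the treated groups. Log2 fold changes that turned, none of them past the threshold under TMM, were, between the treated groups, RNF43 (-0.14 with library totals, -0.23 and -0.21 with limma on log2(FPKM + 0.1) and log2(FPKM + 1)), ZNRF3 (-0.045, -0.11 and -0.079), TCF7 (-0.21, -0.35 and -0.18, and -0.021 with only the groups compared), CTNNB1 (-0.14, -0.16 and -0.15) and TCF7L2 (-0.00398 with limma on log2(FPKM + 0.1)). Against control they were RNF43 (-0.00255) and TCF7 (-0.11) with limma on log2(FPKM + 0.1) and TCF7L1 (-0.22, -0.26 and -0.22). Without the 2 libraries that stood apart, TCF7 turned to -0.37 under activin, MYC to 0.64 between the treated groups and ZNRF3 to 0.16 between activin + HGF and control.

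With 1 library left out, TCF7 ranged from -0.38 to 0.73, -0.64 to 0.80 (1.19 without both libraries that stood apart) and -0.24 to 0.82 in the 3 comparisons, MYC from -1.91 to 0.30 between the treated groups, NKD1 from -0.061 to 0.15 under activin and -0.29 to 0.019 between activin + HGF and control, where ZNRF3 ranged from -0.15 to 0.16 and TCF7L1 from -0.065 to 0.14. APC between the treated groups ranged from -0.59 without the 2 libraries that stood apart to 0.34 without activin replicate 3.

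Same-numbered libraries of different groups had correlations of -0.12 to 0.23, and 7 of 18 best matches shared a number, so that the numbers were not taken as pairs. With the replicate block, 8 of 84 pathway genes passed between the treated groups, APC turned to 0.47 there, and AXIN2 under activin kept its call at -1.05.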
